A study of Homo sapiens with 6 samples.

Results

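The ATP-binding cassette (ABC) transporter family was described in a prostate cancer cell line by taking every gene whose symbol consists of ABC, a subfamily letter from A to G and a number. The deposited files held 44 such genes among 17356, and the 40 with a mean value of at least 1 in either group were tested, out of 16548 genes that met the same condition. The members were grouped by subfamily letter.

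The libraries are RNA-seq of C4-2B-ENZR, a human prostate cancer line that, by its name, is resistant to the androgen receptor inhibitor enzalutamide. The group labelled siKIF15 (n = 3) was transfected with an siRNA against the spindle kinesin KIF15, and the group labelled NC (n = 3) with a negative control siRNA. Both groups share the line, its medium and the transfection, and no untransfected cells were analysed here. How many siRNAs were used, and how long after transfection RNA was taken, is not given in the labels. Separate cultures are not stated for the libraries of a group, so the p-values below describe the spread between libraries, which may be technical.

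Values are the deposited signal, 1 per gene and library, whose sequencing depth is unknown. All values of a library summed to between 50360191 and 53157388 in siKIF15 and between 49460840 and 50063012 in NC, and these sums are not depths. KIF15 itself had values of 294.8, 333.1 and 363 in siKIF15, against 366.4, 403.6 and 319 in NC. The 2 groups overlapped, with siKIF15 3 above NC 3, and the log2 change of KIF15 was -0.13 ± 0.14 (SE; limma, Benjamini-Hochberg adjusted p = 0.57). The targeted gene therefore did not pass the test for a lower level, so rises and falls below compare the libraries labelled siKIF15 with those labelled NC and stand for no proven knockdown. All 9 prostate luminal markers were measured, with summed values of 321838.4 to 342336.4 in siKIF15 and 297715.9 to 307277.1 in NC. Of these markers 4 rose and 1 fell, where 9.66% of all genes tested rose and 8.33% fell. The 4 leukocyte markers summed to 7.5 to 34.9 in siKIF15 and 22.6 to 40.7 in NC, with CD14 the highest in 5 of the 6 libraries, and PTPRC was at 0, 0 and 0 in siKIF15 and at 0.8, 0.1 and 3.8 in NC. Fibroblast markers summed to 316.5 to 363.3 in siKIF15 and 329.5 to 348.8 in NC, almost all of it COL1A1, and endothelial markers to 318 to 414.5 in siKIF15 and 313.3 to 334.2 in NC, mostly VWF. In bulk RNA, fewer cells of a type and less RNA per cell cannot be told apart.

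ABC proteins bind and hydrolyse ATP in a pair of conserved nucleotide-binding domains, and most couple this to moving a substrate across a membrane. The A and G subfamilies are best known for lipids and sterols, B and C for drugs, peptides, organic anions and mitochondrial substrates, and D for peroxisomal fatty acids. Members of E and F lack membrane-spanning parts and act on ribosomes or translation. ABCB1, ABCC1 and ABCG2 are known as pumps that lower the drug content of cancer cells, and ABCC4 is known to be expressed in prostate epithelium.

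The largest difference among the abundant members was a fall of ABCC4, which exports cyclic nucleotides and prostaglandins. ABCC1, a glutathione-conjugate exporter, ABCD3, a peroxisomal membrane protein, and ABCE1, which splits ribosomes after termination, also fell, each by a smaller amount. ABCC3, an organic anion exporter, rose from a low level, and ABCA13, a little-studied member of the A subfamily, fell from a value close to the floor. ABCA13 met the condition for testing through NC only. The remaining 34 of the 40 members passed the test in neither direction.

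Counted together, 1 of 40 members rose and 5 fell at an adjusted p under 0.05, which is 2.5% and 12.5% of the members. Across all genes tested, 9.66% rose, 8.33% fell and 18% passed in either direction, against 15% of the ABC members in either direction, so the family's share of calls was near the background. The log2 change was above 0 in 18 members and below 0 in 22, with a median of -0.04 against -0.0 over all genes. Of the members, 3 reached the mean of 1 in 1 group only (ABCA9 and ABCA13 in NC, ABCD2 in siKIF15), so for these a difference in that direction was built into the condition. Among the 23 members with a mean of at least 100 over the 6 libraries, 0 rose and 4 fell, or 17.4%, where 11.4% of all such genes fell and 11.4% rose. At an unadjusted limma p under 0.05 the counts among these 23 were 0 higher and 7 lower, where 18.2% of all genes at that level were higher and 19.3% lower. In 16 of the 23 the log2 change was below 0, and their median was -0.14, against -0.01 over all 11384 genes at that level. The 17 less abundant members had standard errors of 0.33 to 0.95 on the log2 scale, against 0.067 to 0.2 for the 23, so that most changes of moderate size could not be seen in them.

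**Figure D1:**
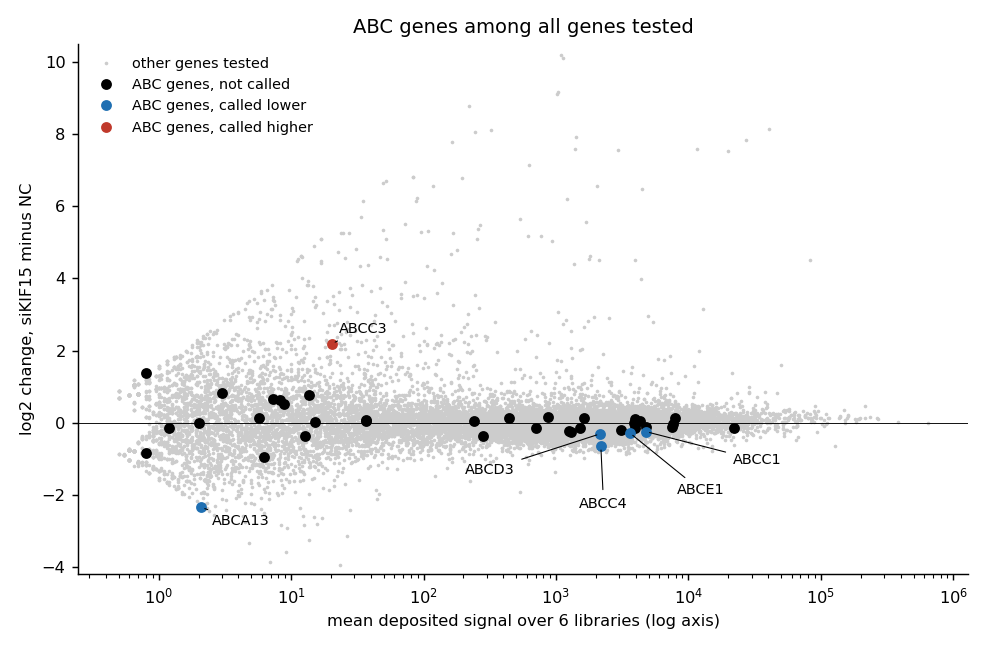
Log2 change (siKIF15 minus NC, on log2 of the signal plus 1) against the mean signal over 6 libraries on a log axis, for all 16548 genes tested (grey) and the 40 ABC genes (black, or coloured where called). The 4 called genes ABCC4, ABCD3, ABCE1 and ABCC1 lie between -0.66 and -0.25 at high signal, whereas ABCC3 at 2.19 and ABCA13 at -2.35 lie at low signal.

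The position of the siKIF15 libraries relative to NC gave a count that does not depend on the variance model. All 3 siKIF15 values lay below all 3 NC values in 10 of 40 members, or 25%, and above them in 4, or 10%. The 10 include ABCA13, and the 4 include ABCD2. Each met the condition for testing only through its higher group, so its direction was built into that condition. Over all genes tested these shares were 16.5% below and 18.3% above. Among the 23 abundant members the counts were 9 below and 2 above, or 39.1% and 8.7%, where all genes at that level gave 20.1% below and 20.5% above. By library, the median log2 difference of the 23 members from their NC mean was -0.09, -0.17 and -0.06 in siKIF15 1, 2 and 3, against -0.0, 0.01 and -0.0 for all genes at that level. In the NC libraries it was -0.02, -0.0 and 0.04. The number of the 23 below the NC mean was 15, 15 and 17 in siKIF15 and 14, 12 and 11 in NC.

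**Figure D2:**
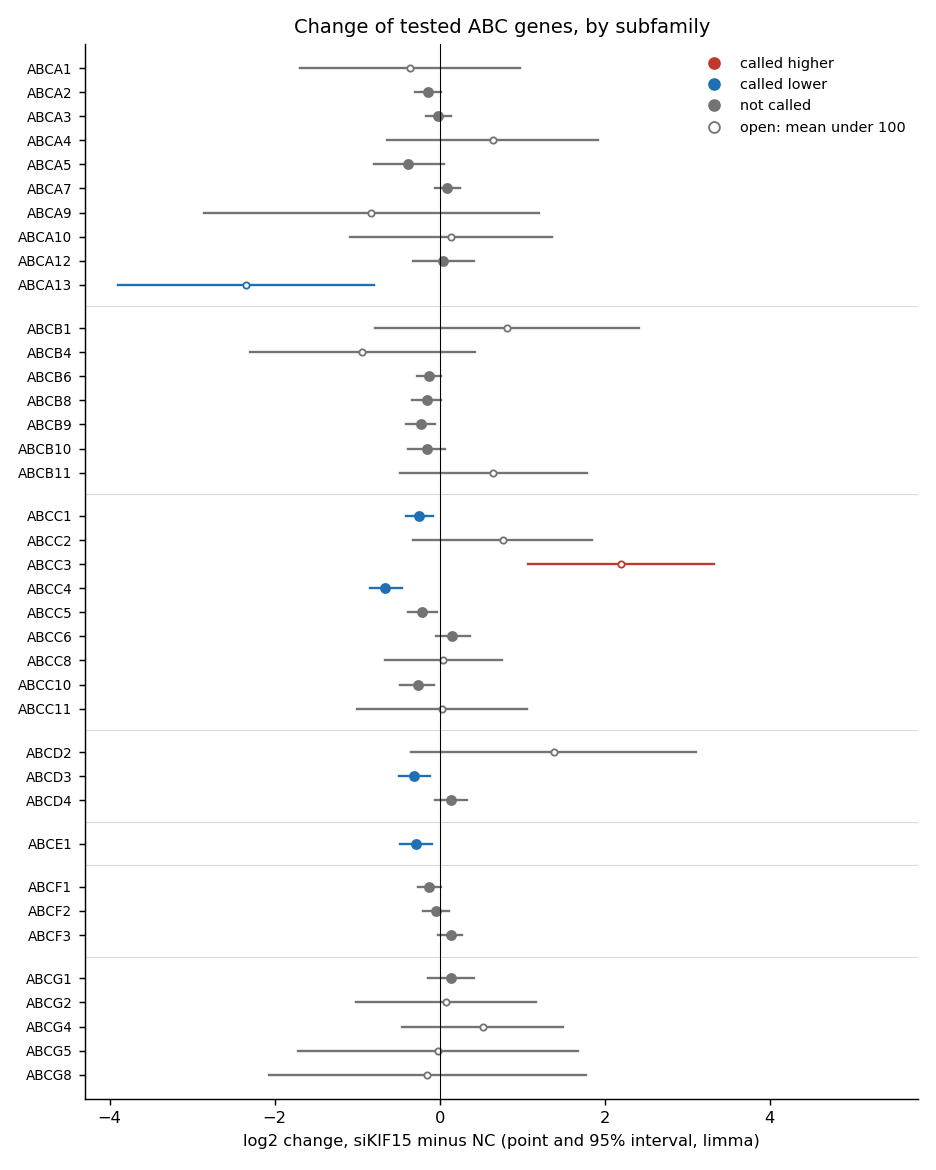
Log2 change (siKIF15 minus NC) of the tested ABC genes reported by name, by subfamily, with the 95% interval from limma as a horizontal line; open points mark genes with a mean signal under 100. The 4 abundant members of subfamily B drawn lie between -0.23 and -0.13 without a call, and the intervals of low members such as ABCG8 span from -2.07 to 1.77.

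Levels were compared between genes as signal per 1000 nucleotides of the longest protein-coding transcript in GENCODE 29. On this scale the order was led by ABCF3 at 3030, ABCA2 at 2710, ABCB6 at 2460, ABCF2 at 2150 and ABCF1 at 1380 as means over 6 libraries, so the soluble F subfamily held 3 of the 5 highest places. ABCE1, at 922, came a little lower. The pumps ABCC1 at 725, ABCC5 at 519 and ABCC4 at 372 lay at places 9, 14 and 15 of the 40. Far below them were ABCG2 at 8.21, ABCC3 at 3.54 and ABCB1 at 0.637, so the classical multidrug pump ABCB1 was among the lowest members measured. In terms of the signal itself, 18 members had a mean of at least 1000, 5 lay from 100 to 1000, 6 from 10 to 100 and 11 under 10. Just inside the condition for testing were ABCG8, with means of 1.2 in siKIF15 and 1.1 in NC, ABCA9, with 0 in siKIF15 and 1.5 in NC, and ABCD2, with 1.7 in siKIF15 and 0 in NC. Just outside were ABCA6 and ABCA8, each with 0 in siKIF15 and 0.7 in NC, ABCB5, with 0.6 in both groups, and ABCC9, with 0.3 in both groups.

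**Figure D3:**
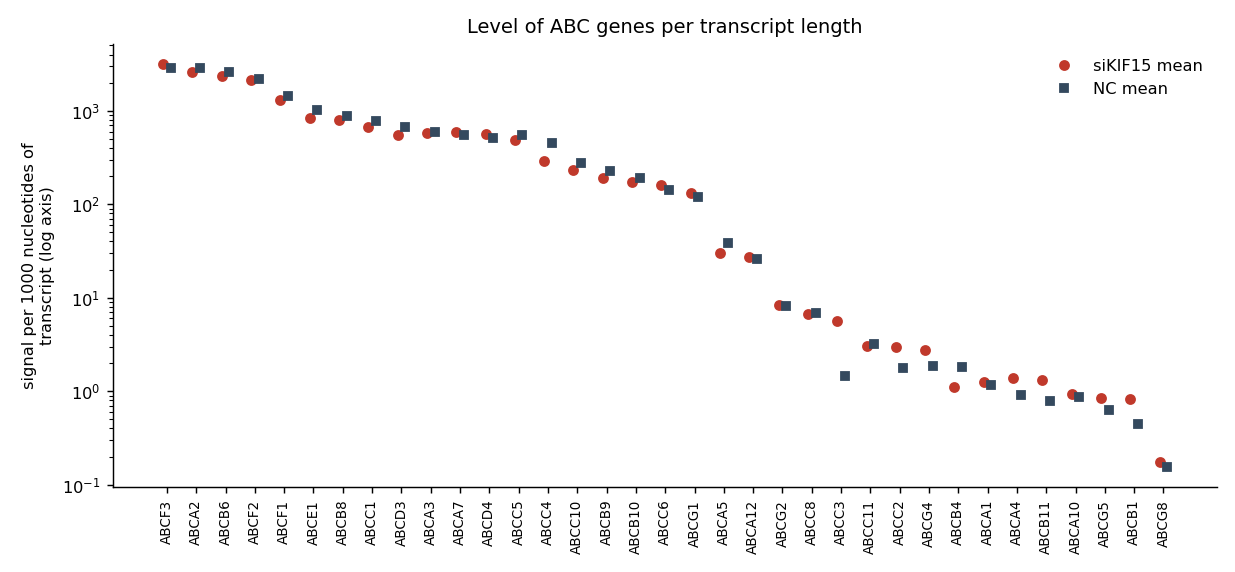
Mean signal per 1000 nucleotides of transcript in siKIF15 (circles) and NC (squares) on a log axis, for the tested ABC genes reported by name, in order of level; ABCA9, ABCA13 and ABCD2, with 1 group at 0, are not drawn. ABCC4 (290 in siKIF15, 454 in NC) and ABCC3 (5.64 in siKIF15, 1.45 in NC) have the widest gaps between symbols among the called genes drawn.

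Subfamily C carried 3 of the 6 calls. ABCC4 had values of 1676, 1491.5 and 1923.8 in siKIF15, against 2666.2, 2741.4 and 2574.3 in NC. Every siKIF15 library was below every NC library, and the gap between the groups was wider than the range within either. The means were 1697.1 ± 216.9 in siKIF15 and 2660.6 ± 83.7 in NC (SD, n = 3 each), which is 1.57-fold lower in siKIF15. The log2 change of ABCC4 was -0.66 ± 0.09 (SE; 95% interval -0.85 to -0.46; limma adjusted p = 0.00013), and the call was made under all 16 alternative settings, with adjusted p from 5.4e-07 to 0.033.

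ABCC1, the multidrug resistance protein that gave the subfamily its other name, was the C member with the highest signal. It had values of 4689.6, 3925.7 and 4523.8 in siKIF15, against 5030.7, 5066.2 and 5451.3 in NC. The groups did not overlap; siKIF15 1 came closest to the NC range and siKIF15 2 was farthest from it. Its log2 change was -0.25 ± 0.08 (SE; limma adjusted p = 0.04), and the call was lost in 6 of the 16 alternatives: adjusted p was 0.18 with a constant prior variance, 0.1, 0.12 and 0.2 without NC 1, 2 or 3, and 0.076 and 0.13 without siKIF15 1 or 2. ABCC5, which like ABCC4 exports cyclic nucleotides, had values of 2754.2, 2638 and 3168 in siKIF15, against 3189.4, 3235.7 and 3470 in NC. All of its siKIF15 values were below the NC values, with a log2 change of -0.21 ± 0.08 (SE) that missed the threshold (adjusted p = 0.086). ABCC10 behaved likewise in position, with a log2 change of -0.27 and an adjusted p of 0.066. ABCC6, the gene mutated in pseudoxanthoma elasticum, was the abundant C member with a log2 change above 0, at 0.15 (adjusted p = 0.31), with all siKIF15 values above NC; it has pseudogene copies, and how shared reads were counted is not stated, so its values are uncertain.

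ABCC3 ran the other way at a far lower signal. Its values were 30.3, 27.2 and 39.1 in siKIF15, against 17.8, 4.3 and 2.7 in NC. The groups did not overlap, and NC 1 stood well above the other NC libraries. The means were 32.2 ± 6.2 in siKIF15 and 8.3 ± 8.3 in NC (SD, n = 3 each), a 3.89-fold difference, and the log2 change was 2.19 ± 0.53 (SE; limma adjusted p = 0.0092). Without NC 1 the log2 change was 2.88, and with a pseudocount of 10 it was 1.29. The call was lost without NC 2 (adjusted p = 0.078), without siKIF15 1 (0.086) and with a constant prior variance (0.11). The liver-type exporter ABCC2 (log2 change 0.76, adjusted p = 0.34), the sulfonylurea receptor ABCC8 (0.04, adjusted p = 0.96) and ABCC11 (0.03, adjusted p = 0.97) had low signal and no call.

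**Figure D4:**
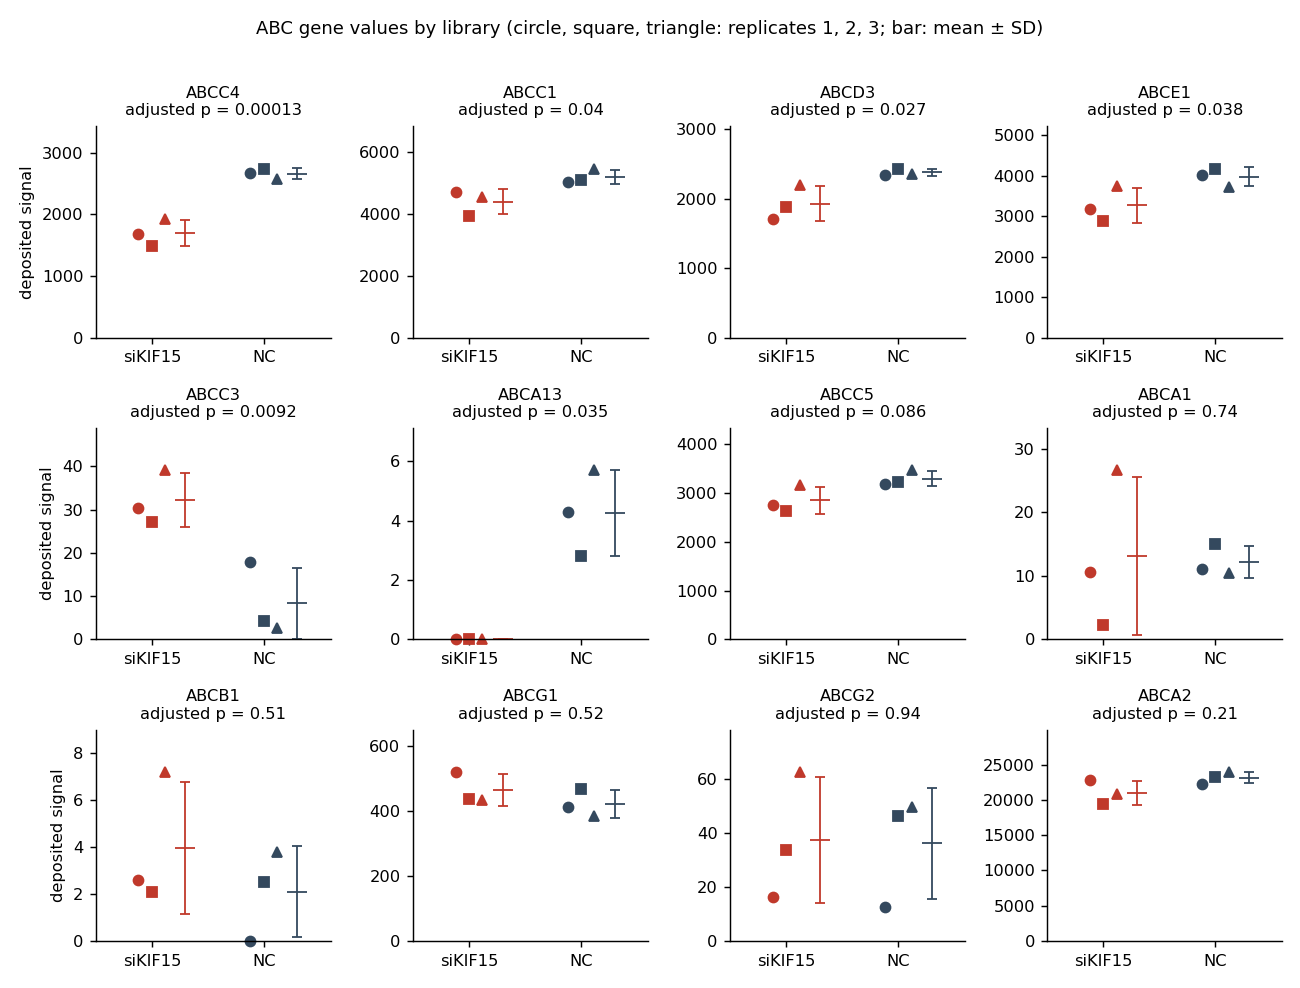
Deposited signal of 12 ABC genes in each library, siKIF15 left and NC right, with the mean and SD (n = 3 each) beside the points; each panel has its own linear axis from 0 and names the limma adjusted p. In ABCC4 the highest siKIF15 library (1923.8) lies below the lowest NC library (2574.3), whereas in ABCG2 the groups cover nearly the same range.

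In subfamily D, ABCD3 had values of 1707.6, 1887.1 and 2197.2 in siKIF15, against 2344.1, 2435.1 and 2360.3 in NC. All siKIF15 values were below NC, with siKIF15 3 the closest. Its log2 change was -0.31 ± 0.09 (SE; limma adjusted p = 0.027), and 6 alternatives lost the call: adjusted p was 0.16 with a constant prior variance, 0.086, 0.14 and 0.093 without NC 1, 2 or 3, and 0.17 and 0.054 without siKIF15 1 or 2. ABCD4, which is needed for cobalamin to leave lysosomes, had a log2 change of 0.14 (adjusted p = 0.35). ABCD2, a peroxisomal fatty acid importer, was listed at 0.9, 2.1 and 2.1 in siKIF15 and at 0, 0 and 0 in NC (adjusted p = 0.28).

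ABCE1 is the sole member of its subfamily. It had values of 3166.8, 2886.7 and 3740.6 in siKIF15, against 4015.6, 4176.6 and 3716 in NC. The groups overlapped, because siKIF15 3 was slightly above NC 3. The log2 change was -0.29 ± 0.09 (SE; limma adjusted p = 0.038), and the call was lost in 6 alternatives: adjusted p was 0.2 with a constant prior variance, 0.13, 0.2 and 0.063 without NC 1, 2 or 3, and 0.19 and 0.13 without siKIF15 1 or 2. Exons of ABCE1 overlap in GENCODE 29 with 3 genes on the opposite strand, ANAPC10 and OTUD4 among them, and whether strand was used in counting is not stated, so its value is uncertain; the other 5 called members have no such overlap.

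The F subfamily, relatives of ABCE1 without membrane spans, had 3 members and no call, with 0 at an unadjusted limma p under 0.05. ABCF3 had values of 8539.1, 8541.1 and 7830.5 in siKIF15, against 7638.2, 7378.7 and 7790.6 in NC. Its siKIF15 values were all above NC, by a margin of 0.13 ± 0.07 (SE) on the log2 scale that did not pass (adjusted p = 0.22). ABCF1, which takes part in translation initiation, lay on the other side with a log2 change of -0.13 (adjusted p = 0.21) and no overlap, and ABCF2 had a log2 change of -0.05 (adjusted p = 0.69).

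Subfamily B had 8 tested members and no call, with 1 (ABCB9) at an unadjusted limma p under 0.05. All 5 of its abundant members had a log2 change below 0, from -0.23 to -0.13, and in 3 of them the groups did not overlap. Over all 11384 genes with a mean of at least 100, 5803 had a log2 change below 0. All siKIF15 values lay below all NC values in 20.1% of those genes. ABCB6, a porphyrin-linked transporter and the B member with the highest signal, had values of 7385.6, 7452.9 and 6645.1 in siKIF15, against 7616.6, 8185 and 7721.3 in NC. Each siKIF15 value was below each NC value, with a log2 change of -0.13 (adjusted p = 0.22). The lysosomal peptide transporter ABCB9 came closest to a call at -0.23 (adjusted p = 0.063), and the mitochondrial members ABCB8 and ABCB10 had log2 changes of -0.16 and -0.16. ABCB1 was listed at 2.6, 2.1 and 7.2 in siKIF15, against 0, 2.5 and 3.8 in NC. These values overlap near the floor, and the interval of its log2 change, -0.79 to 2.41 (adjusted p = 0.51), allows a change in either direction.

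Subfamily A had 10 tested members and 1 call. ABCA2, an endolysosomal lipid transporter, had the highest signal of the whole family, at 22872.8, 19470.8 and 20785 in siKIF15, against 22345.5, 23228 and 23993.3 in NC. The groups overlapped through siKIF15 1 and NC 1, with a log2 change of -0.14 ± 0.07 (SE; adjusted p = 0.21). ABCA1, which loads cholesterol onto apolipoprotein A-I, was listed at 10.6, 2.2 and 26.6 in siKIF15, against 11, 15 and 10.4 in NC. The siKIF15 libraries held both the lowest and the highest value, and no change could be read from them (log2 change -0.36 ± 0.62 SE, adjusted p = 0.74). ABCA13 was listed at 0 in all siKIF15 libraries and at 4.3, 2.8 and 5.7 in NC. It met the condition for testing through NC only, so the direction of its call was built into that condition. Its log2 change of -2.35 ± 0.73 (SE; limma adjusted p = 0.035) depends on the pseudocount, and no fold is given. The call of ABCA13 was lost in 8 of 15 alternatives, among them a pseudocount of 10 (log2 change -0.51, adjusted p = 0.081), the removal of any 1 NC library (0.11, 0.075 and 0.15 without NC 1, 2 or 3) and the removal of siKIF15 1 (0.073) or siKIF15 2 (0.065). The lung surfactant lipid transporter ABCA3 (-0.02), the phospholipid transporter ABCA7 (0.09), the skin lipid transporter ABCA12 (0.04) and ABCA5 (-0.38, adjusted p = 0.22) completed the abundant A members without a call.

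The 5 members of subfamily G, which act as dimers on sterols and drugs, had no call, with 0 at an unadjusted limma p under 0.05. ABCG1, a sterol exporter to high-density lipoprotein, had values of 519.6, 436.6 and 432.4 in siKIF15, against 413.2, 466.5 and 383.5 in NC. They overlapped, with a log2 change of 0.14 ± 0.13 (SE; adjusted p = 0.52). ABCG2, the breast cancer resistance protein, was listed at 16.3, 33.5 and 62.6 in siKIF15, against 12.5, 46.3 and 49.6 in NC. In both groups the values spread several-fold between libraries, and the 95% interval of the log2 change was -1.01 to 1.17 (adjusted p = 0.94). The brain member ABCG4 and the intestinal and hepatic sterol pair ABCG5 and ABCG8 had means of at most 10.6 in either group and log2 changes of 0.52, -0.02 and -0.15.

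Base composition and transcript length moved with single libraries. A gene's deviation in a library was taken from the mean of that library's own group, so it does not compare siKIF15 with NC. The rank correlation between this deviation and GC content, across 11275 genes, which are not independent replicates, was 0.55, 0.52 and -0.75 in siKIF15 1, 2 and 3. It was 0.17, -0.31 and 0.2 in NC 1, 2 and 3. For transcript length the siKIF15 libraries gave 0.04, -0.65 and 0.54, and the NC libraries -0.24, 0.07 and 0.16. ABC transcripts are long, with a median of 5526 nucleotides for the tested members against 3229 for all genes tested. With a smooth trend on both removed from each library, 1 of the 40 members was called higher (ABCC3) and 10 lower, or 2.5% and 25%, where 12.8% of all genes were called higher and 14.5% lower. Of those 10, 4 were also lower without the correction. The other 6 were ABCB6 (-0.26), ABCB8 (-0.25), ABCB9 (-0.27), ABCC5 (-0.19), ABCC10 (-0.34) and ABCF1 (-0.21). ABCC4 stood at -0.53 after correction, ABCC1 at -0.24, ABCD3 at -0.17 and ABCE1 at -0.15, while ABCA13 lost its call at -2.0 (adjusted p = 0.054). The median of the 23 abundant members was -0.12 after correction, against -0.02 for all genes at that level.

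**Figure D5:**
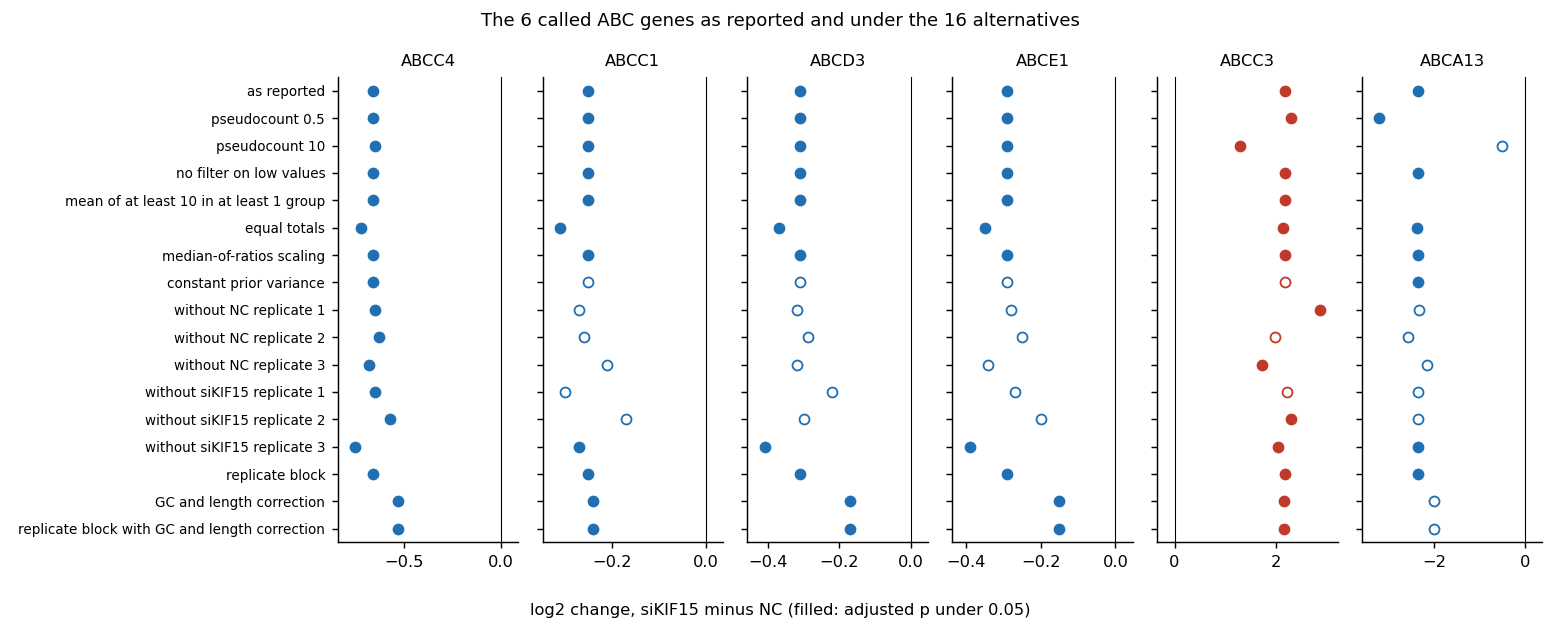
Log2 change (siKIF15 minus NC) of the 6 called ABC genes as reported and under each of the 16 alternative settings, 1 panel per gene with its own axis; filled points have an adjusted p under 0.05. ABCC4 is filled in every row, ABCC1, ABCD3 and ABCE1 are open in 6 rows each, and ABCA13 has no point where its mean was under the stricter minimum.

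Promoters of 2 of the fallen members are shown, because the family contains known targets of the oxidative stress factor NRF2 and GC-rich starts of the kind found in broadly used genes. They are the bases before the RefSeq transcription start, on GRCh38.p14 and 5′ to 3′ along the gene's strand. ABCC4 is on the minus strand at chr13:95301476-95301701, with 80.1% GC, and ABCD3 is on the plus strand at chr1:94418139-94418388, with 74.4% GC. The ABCC4 window is trimmed to the 226 bases upstream of any GENCODE 29 start. The window of ABCA13, also called lower, is not printed. It has 44.8% GC and no match to any of the motifs searched below, so the printed windows do not stand for all fallen members. Capitals mark the match to TGACNNNGC in ABCC4, read on the other strand, and the 4 matches to GGGCGG or its complement in ABCD3.
ABCC4: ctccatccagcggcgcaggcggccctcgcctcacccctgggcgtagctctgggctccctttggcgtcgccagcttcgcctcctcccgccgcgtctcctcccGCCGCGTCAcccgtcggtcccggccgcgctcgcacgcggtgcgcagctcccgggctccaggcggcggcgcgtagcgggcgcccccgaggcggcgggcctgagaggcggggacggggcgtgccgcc
ABCD3: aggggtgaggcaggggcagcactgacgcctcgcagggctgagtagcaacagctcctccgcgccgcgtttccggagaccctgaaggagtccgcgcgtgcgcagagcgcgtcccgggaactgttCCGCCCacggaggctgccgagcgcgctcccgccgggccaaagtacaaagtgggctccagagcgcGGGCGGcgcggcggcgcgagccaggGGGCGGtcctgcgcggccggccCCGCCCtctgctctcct

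Searched on both strands of the 250 bases before each of 27305 RefSeq starts, the antioxidant response motif TGACNNNGC was in 11% of all windows and in 6 of the 32 tested members that had one (18.8%): ABCA2, ABCA3, ABCB6, ABCC4, ABCD4 and ABCF1. Among these 6, ABCC4 was the single member called, and ABCD4 had a log2 change above 0. The called members ABCC1 and ABCC3 had no window and were not searched for any motif. The interferon-stimulated motif, GAAA, any 2 bases and GAAA again, was in 3.07% of all windows and in those of ABCA9 and ABCC2, neither of which was called. The GC box GGGCGG was in 42.3% of all windows and in 17 of the 32 members (53.1%). A match is a description of letters only.

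Genes of the pathways around the family were read next, beside the 9.66% of all genes tested that rose and the 8.33% that fell. In the list on liver X receptor and sterol efflux, 3 of 16 rose and 1 fell, with a median log2 change of 0.02. NPC1, which moves cholesterol out of lysosomes, fell to 3411.5, 3122.5 and 3368.4 in siKIF15, against 4975.9, 5447.1 and 5219.9 in NC (log2 change -0.66, limma adjusted p = 8.8e-06). The nuclear receptors RXRB and NR1H2 rose by 0.27 and 0.24 on the log2 scale, and ABCA1 and ABCG1 had no call. RXRB lost its call in 7 of the 16 alternatives and NR1H2 in 9, among them the removal of any 1 NC library or of siKIF15 1, and the GC and length correction, which gave 0.14 for RXRB and 0.08 for NR1H2. Of 21 xenobiotic and detoxification genes 3 rose and 3 fell. GCLC, the catalytic subunit of the enzyme that limits glutathione synthesis, fell to 10791.3, 10476.3 and 11527.8 in siKIF15, against 18326.6, 19849.6 and 18591.3 in NC (log2 change -0.79, adjusted p = 6.8e-07), and its groups were far apart. Thioredoxin reductase TXNRD1 fell by 0.3, heme oxygenase HMOX1 rose by 0.34 and the glutathione transferase GSTM1 rose by 1.13, on the log2 scale. GCLM (-0.26) and UGT2B17 (0.82), named after their values were seen, made up the count, and GSTM1 and UGT2B17 have close paralogs, so their values are uncertain. GCLM lost its call in 8 alternatives, among them the removal of any 1 NC library, siKIF15 1 or siKIF15 2, and stood at -0.07 after the GC and length correction. UGT2B17 lost its call without any 1 of the same 5 libraries. HMOX1 lost its call in 4 alternatives, among them without NC 2, siKIF15 1 or siKIF15 2. The smallest rise of HMOX1 over the 16 alternatives was 0.18. TXNRD1 lost its call in 3, among them without NC 2 or siKIF15 1, and GSTM1 in 2, among them without siKIF15 1. GCLC kept its call in all 16.

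The translation partners of ABCE1 and the F subfamily had 0 of 18 higher and 5 lower in limma, with a median of -0.18; at an unadjusted p under 0.05 the counts were 1 higher and 9 lower. Over all genes tested, 9.66% rose and 8.33% fell, and 15.7% were higher and 15% lower at an unadjusted p under 0.05. The initiation factor subunit EIF3A fell to a mean of 7846.6 in siKIF15, against 11125 in NC (log2 change -0.51, adjusted p = 0.00017). EIF2S1, which carries the phosphorylation site of the integrated stress response, fell by 0.37, the ribosome quality control ligase LTN1 by 0.66 and the rescue factor HBS1L by 0.3, and NEMF (-0.36), named after its values were seen, was the fifth. EIF3A was called in all 16 alternatives, LTN1 in 14 and EIF2S1 in 15. Their smallest falls over the 16 alternatives were -0.36 for EIF3A, -0.37 for LTN1 and -0.22 for EIF2S1. With 1 library left out the smallest falls were -0.46, -0.56 and -0.32, in the same order. HBS1L and NEMF each lost the call in 8, among them the removal of any 1 NC library, siKIF15 1 or siKIF15 2, and after the GC and length correction they stood at -0.05 and -0.13. Of 22 peroxisomal partners of subfamily D, 3 rose and 2 fell: PEX11A (0.44), ACAA1 (0.23) and PEX3 (0.32, named after its values were seen) against PEX13 (-0.33) and ACSL1 (-0.24). PEX11A was called in all 16 alternatives. ACAA1 lost its call in 9 of them, PEX3 in 7, PEX13 in 5 and ACSL1 in 5, each of these 4 also when NC 1 was left out, and after the GC and length correction ACAA1 stood at 0.08 and PEX13 at -0.17. Of 20 mitochondrial iron-sulfur and heme genes, around which ABCB6 and ABCB10 work, 2 rose and 3 fell, with HSCB (0.4) and FDXR (0.36) higher and ALAD (-0.37), HSPA9 (-0.25) and CPOX (-0.28, named after its values were seen) lower. ALAD was called in all 16 alternatives, whereas HSPA9 lost its call in 5, CPOX in 4 and HSCB and FDXR in 3 each. Of 12 organic ion uptake transporters of the SLCO and SLC22 families, SLCO2A1, a prostaglandin transporter, was the 1 that rose (0.97), and 0 fell (2 higher and 0 lower at an unadjusted limma p under 0.05), with the call lost without NC 2, without siKIF15 1 and with a constant prior variance; 1 tested pore gene of the potassium channels that contain ABCC8 had no call.

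Of 3 ABC genes that carry other symbols, 1 rose and the other two had no call. TAP1, a subunit of the peptide transporter that feeds major histocompatibility complex class I, rose to 8024.6, 8147.4 and 7262 in siKIF15, against 4504, 4394.4 and 4541.5 in NC. The groups were widely separated, at 1.74-fold (log2 change 0.8 ± 0.07 SE, limma adjusted p = 7.2e-07). Its partner TAP2 had 4689.2, 4723.2 and 4522.9 in siKIF15, against 4203.6, 4018.9 and 4101.8 in NC, with no overlap and a log2 change of 0.18 that did not pass (adjusted p = 0.079). CFTR, the chloride channel of the C subfamily, was listed at 0, 0 and 2 in siKIF15 and at 0, 0.1 and 3.9 in NC. Of 9 listed genes of class I peptide production and loading, 8 rose and 0 fell in limma (also 8 and 0 at an unadjusted p under 0.05), with a median of 0.86. Over all genes tested, 9.66% rose and 8.33% fell, and 15.7% were higher and 15% lower at an unadjusted p under 0.05. The 8 included PSMB9 at 1.83, B2M at 1.61, TAPBPL at 1.09 and PSMB8 at 0.86. PSMB9, B2M, TAPBPL and PSMB8 were called in all 16 alternatives, whereas some of the others that rose lost their calls in up to 5. All 10 interferon-stimulated genes listed for context rose, with log2 changes from 0.41 to 8.13 and a median of 6.02. The part of this response in the values of the ABC genes was not tested.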

How the data were processed

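RNA-seq of 3 siKIF15 and 3 NC libraries was analysed, grouped by sample title. The authors deposited 1 signal value for each symbol in each library, with no unit named. The values look like gene counts brought to a common library size, which is an inference, so depth is unknown. Bowtie 0.12.2 and mouse builds appear in the submitters' processing notes although the samples are human; the human build is not given in the sources used here.

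Log2(value + 1) was fitted, for genes whose mean reached 1 in either group, with limma 3.58.1 (R 4.3.3, variance trend, no covariate) and adjusted by the Benjamini-Hochberg method over 16548 genes; the threshold was 0.05. This scale understates changes of low genes. A value at the floor is printed as 0. GC content and length came from GENCODE 29 for 16037 tested genes (lowess span 0.3). Gene-wise fits were checked on simulated data with independent noise. These data carried no GC or length trends of single libraries, so calls under such trends were not checked. The 16 alternatives changed the pseudocount, the filter, the scaling, the variance model or the libraries used, or added a replicate block, a GC and length correction, or both.

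Members and lists were chosen with earlier results of these data known. Values in every library are given for members past the threshold, for ABCA1, ABCB1, ABCC1, ABCC4, ABCC5, ABCG1 and ABCG2, and for the member with the highest signal in each subfamily. Up to 4 genes per list with the smallest adjusted p, TAP1, TAP2 and CFTR are also named. A few genes that this rule or the text would name are not reported here; counts include them.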

Additional observations from a re-analysis of the deposited data

How the results depend on the processing

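Depth is unknown, so no counting interval was possible, and the 17 members with a mean under 100 could show only large changes. Of the 6 called members, ABCC4 was called in all 16 alternatives; the other 5 lost 29 calls in all, and 23 of the 34 uncalled members were called in none.

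The count of all genes called, 2978, was 1070 with a constant prior variance (760 higher, 310 lower), and 1184 to 5077 with 1 library left out (767 to 2537 higher, 417 to 2540 lower). It was 4526 with a replicate block and GC and length correction together (2380 lower), and GC and length correction alone gave 2318 lower. Scaling to equal totals shifted the median of all genes by -0.06 and gave 1205 higher and 1753 lower, against 1599 and 1379 as reported. The 6 called ABC genes became 10 with equal totals (9 lower), 3 with a constant prior variance (2 lower), 11 with GC and length correction (10 lower) and 12 with that and the block (11 lower). With 1 library left out they numbered 1 to 11 (0 to 3 higher, 1 to 8 lower): 11 without siKIF15 3, 3 without siKIF15 2, 1 without siKIF15 1, and 2, 1 and 2 without NC 1, 2 or 3. The counts of all genes called, in the same order, were 5077, 2187, 1184, 1802, 1366 and 1723, so the ABC counts rose and fell with those of all genes. The 35 called genes of the 9 related lists, whose sizes are given above, became 14 with a constant prior variance (10 higher, 4 lower). They numbered 17 to 51 with 1 library left out (12 to 27 higher, 5 to 24 lower). With GC and length correction 27 were lower, with or without the block. Over all genes tested 18% were called as reported, and the count of all genes moved in the same direction in each of these settings. The causes were not tested.

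Signs reversed in these uncalled genes. With equal totals the log2 change was -0.02 for ABCA12 and ABCC8 and -0.03 for ABCC11. With GC and length correction, with or without the block, it was -0.02 for ABCC8 and -0.01 for ABCF3. With a pseudocount of 10 it was -0.01 for ABCC11, 0.05 for ABCG5 and 0.01 for ABCG8. With 1 library left out it ranged from -1.08 to 0.46 for ABCA1, -0.06 to 0.01 for ABCA3, -0.29 to 0.38 for ABCA10, -0.09 to 0.16 for ABCA12, -0.22 to 0.35 for ABCC8, -0.47 to 0.42 for ABCC11, -0.09 to 0.02 for ABCF2, -0.54 to 0.56 for ABCG2, -0.65 to 0.65 for ABCG5, -0.89 to 0.28 for ABCG8 and -0.79 to 0.01 for CFTR.

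Deviations from the own group's mean correlated between same-numbered libraries at 0.028, -0.14 and -0.001 across 11384 genes. Between differently numbered libraries they correlated at -0.243 to 0.256. Single libraries carried strong GC and length trends, so these correlations cannot settle whether the replicate numbers pair the libraries. With the replicate block 6 ABC genes and 3184 of all genes were called.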
